A study of Mus musculus with 2 samples.

Results

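The 6 Fc receptor genes described here, Fcgr1, Fcgr3, Fcgr4, Fcer1g, Fcgr2b and Fcgrt, were chosen by gene symbol from the 31053 genes of the count matrices, and each symbol matched 1 row. They were read in 2 single-cell libraries of mouse liver leukocytes, 1 library per group. RES came from C57BL/6 mice labelled as having resolved liver fibrosis, and Ctrl from uninjured C57BL/6 mice; the agent that caused the fibrosis, its schedule and the age and sex of the mice were not given in the sources used here. For each library, cells of 5 mice were pooled and sorted for CD45 and the integrin CD11b from a density gradient of liver cells, so that a library holds no spread between mice. No difference between RES and Ctrl therefore has a replicate check, no p-value is given, and every interval below is an exact 95% interval for counting error only.

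Fc receptors bind the constant part of antibodies and tie antibody-coated targets to the cells that engulf or kill them. Fcgr1, Fcgr3 and Fcgr4 encode the activating IgG receptors FcγRI, FcγRIII and FcγRIV of the mouse, which signal through the ITAM of the common γ chain encoded by Fcer1g. Fcgr2b encodes FcγRIIB, the inhibitory IgG receptor, whose ITIM recruits the phosphatase SHIP1, so that the balance of activating and inhibitory receptors on a myeloid cell sets its threshold for immune complexes. Fcgrt encodes the neonatal Fc receptor, which pairs with β2-microglobulin and returns IgG and albumin from endosomes to the cell surface.

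Fcgr2b, Fcgr4, Fcgr3 and Fcer1g lie in this order within 275749 bp of mouse chromosome 1 (GRCm38, GENCODE annotation), all protein-coding. Fcgr2b spans chr1:170958617-170976547 on the minus strand, Fcgr4 chr1:171018920-171029761 on the plus strand, Fcgr3 chr1:171051174-171064935 on the minus strand and Fcer1g chr1:171229572-171234365 on the minus strand. Fcgr1 lies apart at chr3:96282909-96293969 and Fcgrt at chr7:45092990-45103851, both on the minus strand. Fcgr3 and Fcgr2b have near-identical stretches: 17.7% of the 31-base windows of the Fcgr3 transcript were also found in Fcgr2b, but none of the 470 windows in the last 500 bases, where 3′ libraries read. No other pair of members shared such a window. Fcgr2b and Fcgrt each overlap an annotated antisense gene, Gm38204 and Gm45669. Fcgr3 and Fcgr4 each overlap an annotated gene on their own strand, Mir6546 and Gm26110.

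The bases before the transcription starts are shown because the 3 activating receptor genes share a motif there that was not found in the same windows of the other 3 members. GAGGAA, the core of sites bound by ETS factors of the PU.1 type, was searched on both strands in the 250 bases before each RefSeq start (GRCm38.p6) and occurred within 100 bases of the start in Fcgr1, Fcgr3 and Fcgr4. Capitals mark the match, here on the strand opposite to the gene; for these 3 genes only bases outside annotated exons are printed, 5′ to 3′ on the strand of the gene.
Fcgr1, chr3:96293970-96294069: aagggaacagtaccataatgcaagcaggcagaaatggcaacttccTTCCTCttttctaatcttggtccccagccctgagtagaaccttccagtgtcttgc
Fcgr3, chr1:171059404-171059503: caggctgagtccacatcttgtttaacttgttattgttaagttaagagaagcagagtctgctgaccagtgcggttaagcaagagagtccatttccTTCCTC
Fcgr4, chr1:171018826-171018919: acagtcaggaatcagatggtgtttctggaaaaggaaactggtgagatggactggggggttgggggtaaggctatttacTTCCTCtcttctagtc

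GAGGAA is a common word: 9.82% of all 32851 RefSeq start sites have it within 100 bases, and 23.3% within 250. The start used for Fcgr3 lies inside the longer GENCODE gene. A composite of an ETS and an interferon regulatory factor site, GGAA followed by any 2 bases and GAAA, was found in Fcgr2b and in no other member; 2.30% of all start sites have it within 250 bases. It does not overlap a GAGGAA match, and 30 bases around it are shown, with the match in capitals; these bases lie in an annotated exon.
Fcgr2b, chr1:170976087-170976116: gaccgtttctTTTCACTTCCccatttggac

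The STAT palindrome TTCNNNGAA was found in Fcgr1 alone, from base -109 to base -101 before the start, and in 7.02% of all start sites within 250 bases. Fcer1g and Fcgrt held none of the 3 motifs in the same windows. These are matches of letters and do not show binding.

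The matrices hold unique molecular identifier (UMI) counts, each UMI standing for 1 captured transcript. After filtering, 4011 RES and 3337 Ctrl cells remained, with medians of 6357 and 4510 UMIs, so RES cells were read more deeply. Levels are therefore given as CPM, the UMIs of a gene per 1000000 UMIs of a cell class. Classes were set by marker gates that use none of the 6 genes: NK cells (1492 in RES and 1583 in Ctrl), classical monocytes (625 and 316), intermediate monocytes with both monocyte marker sets (169 and 96), nonclassical monocytes (521 and 285), macrophages with complement C1q (366 and 99), conventional dendritic cells (cDC; 209 and 264) and B cells (63 and 62). Median UMIs per cell in RES and Ctrl were 4096 and 3316 in NK cells, 10746 and 7792 in classical monocytes, 5399 and 5197 in nonclassical monocytes and 12082.5 and 7931 in macrophages. Ptprc, which encodes CD45, was detected in 93.7% of cells or more of every class. Itgam, which encodes CD11b, was read in 95.1% of RES and 53.5% of Ctrl macrophages, but in 19.1% of RES and 9.68% of Ctrl B cells, and the B-cell gate is led by immunoglobulin genes of plasma cells such as Igha and Jchain. In all, 56 barcodes occurred in both libraries; 20 of them are RES macrophages and none is a Ctrl macrophage.

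The macrophage gate held unlike cells in the 2 libraries. Of the RES macrophages, 303 carried at least 10 UMIs of Arg1, which encodes arginase 1, and Spp1, which encodes osteopontin, summed, against 6 of the Ctrl macrophages. The summed level of Arg1 and Spp1 in macrophages was 8670 CPM in RES and 661 CPM in Ctrl. The Kupffer cell markers Clec4f, Timd4, Vsig4, Cd5l, Cd163 and Marco summed to 29.0 CPM in RES and 65.9 CPM in Ctrl macrophages, with Timd4 and Marco at 0 in Ctrl. The ratio of activating to inhibitory transcripts in macrophages and monocytes is therefore also given within strata of Arg1 and Spp1.

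**Figure D1:**
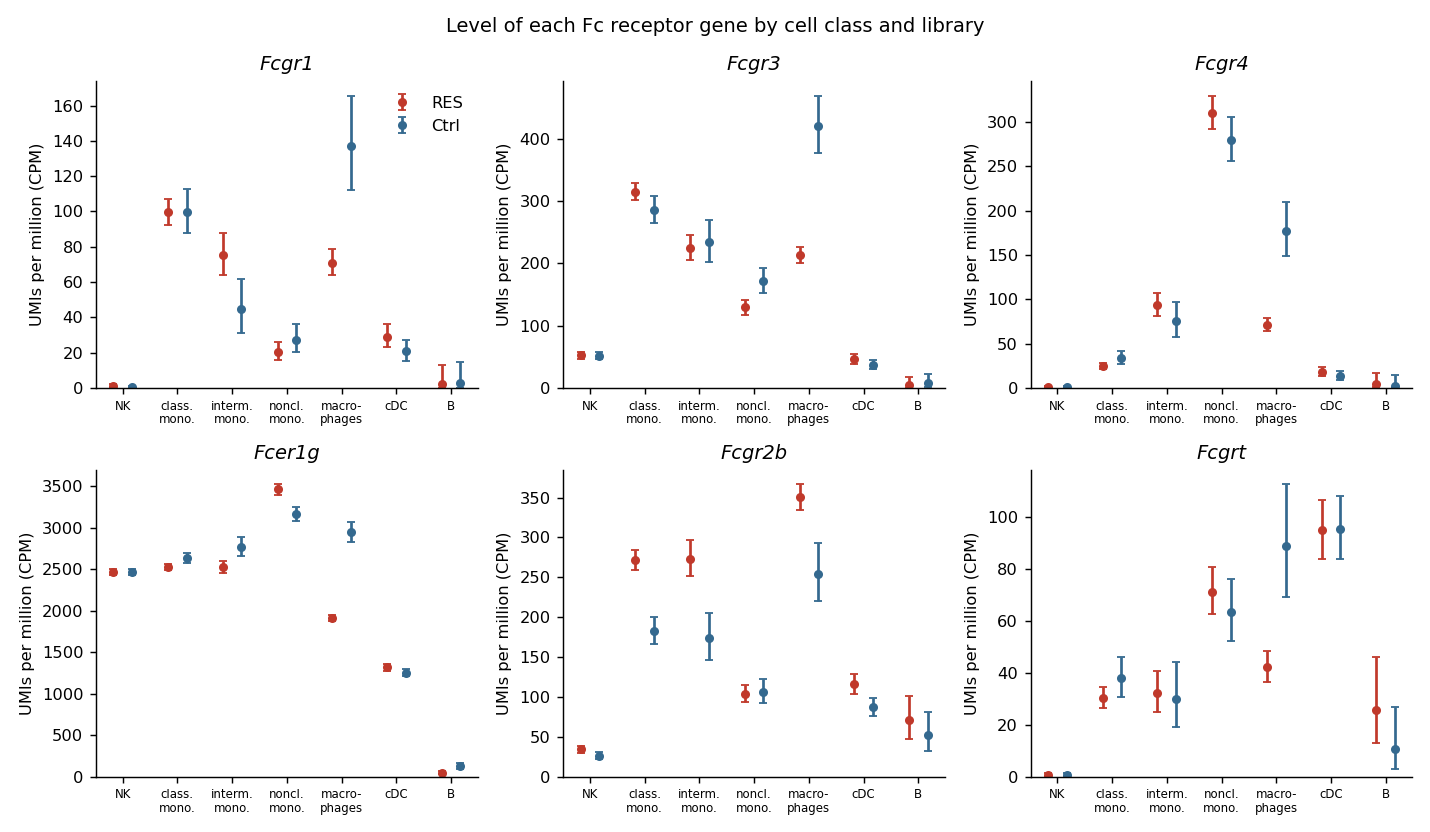
Level of each gene in CPM (vertical axes with separate scales) in 7 cell classes, with RES in red left of Ctrl in blue; bars are exact 95% Poisson intervals. The activating receptors and Fcer1g are lower in RES than in Ctrl macrophages, while Fcgr2b is higher in RES macrophages, classical monocytes and intermediate monocytes.

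Fcgr1, the high-affinity IgG receptor gene, was foremost a gene of classical monocytes and macrophages, with intermediate monocytes beside macrophages in RES. In RES it was read at 99.5 CPM in classical monocytes, 75.2 CPM in intermediate monocytes, 71.0 CPM in macrophages, 29.1 CPM in cDC, 20.4 CPM in nonclassical monocytes and 1.03 CPM in NK cells. In Ctrl the levels were 99.5, 44.6, 137, 20.7, 27.3 and 0.348 CPM in the same classes. B cells gave 1 UMI in each library. Classical monocytes headed the order in RES, with intermediate monocytes and macrophages next and overlapping intervals. In Ctrl, macrophages and classical monocytes headed it with overlapping intervals. In RES macrophages Fcgr1 was lower than in Ctrl macrophages, with a log2 ratio of -0.95 (interval -1.27 to -0.62). In intermediate monocytes it was higher in RES, with a log2 ratio of 0.75 (0.22 to 1.32), though the interval held 0 with gate thresholds doubled, at 0.45 (-0.69 to 1.82). Classical monocytes had a log2 ratio of 0.00 (-0.21 to 0.22), and one of 0.25 (0.08 to 0.42) with each cell assigned to its highest marker list.

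Fcgr3, the low-affinity activating receptor gene and the one that serves antibody-dependent killing in NK cells, was read in every class but B cells at 37.1 CPM or more; B cells gave 2 UMIs in RES and 3 in Ctrl. Its RES levels were 315 CPM in classical monocytes, 225 CPM in intermediate monocytes, 213 CPM in macrophages, 129 CPM in nonclassical monocytes, 52.3 CPM in NK cells and 45.8 CPM in cDC. Its Ctrl levels were 286, 234, 421, 172, 51.7 and 37.1 CPM in the same classes. Ctrl macrophages thus headed all classes of both libraries, and RES macrophages lay below RES classical monocytes. The log2 ratio of RES over Ctrl was -0.98 (-1.16 to -0.80) in macrophages, -0.41 (-0.63 to -0.20) in nonclassical monocytes and 0.14 (0.02 to 0.26) in classical monocytes. In NK cells it was 0.02 (-0.21 to 0.24).

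Fcgr4 marked the nonclassical monocytes, and it was among the 10 genes with the highest fold in that gate against the other cells. It was read there at 310 CPM (292 to 330) in RES and 280 CPM (256 to 305) in Ctrl. In classical monocytes its level was 24.3 CPM in RES and 33.4 CPM in Ctrl, and intermediate monocytes lay between the monocyte poles at 93.2 CPM in RES and 75.6 CPM in Ctrl. Macrophages held 71.2 CPM in RES and 177 CPM in Ctrl, a log2 ratio of -1.31 (-1.60 to -1.02). This was the lowest ratio of any member in macrophages, while in nonclassical monocytes the ratio was 0.15 (-0.0045 to 0.31). In cDC the level was 17.7 CPM in RES and 13.4 CPM in Ctrl, NK cells held at most 1.33 CPM in either library, and B cells gave 2 UMIs in RES and 1 in Ctrl.

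Fcer1g, the γ chain through which the activating receptors and other receptors signal, was the member with the widest reach. Its RES levels were 3464 CPM in nonclassical monocytes, 2528 CPM in both classical and intermediate monocytes, 2463 CPM in NK cells, 1912 CPM in macrophages, 1320 CPM in cDC and 47.1 CPM in B cells. Its Ctrl levels in these classes were 3166, 2636, 2771, 2467, 2948, 1252 and 128 CPM, in the order nonclassical, classical and intermediate monocytes, NK cells, macrophages, cDC and B cells. Macrophages stood apart from the other myeloid classes, with a log2 ratio of -0.62 (-0.69 to -0.56). Elsewhere outside B cells the ratio lay between -0.13 in intermediate and 0.13 in nonclassical monocytes. NK cells gave 0.00 (-0.04 to 0.03), the narrowest interval of the members there.

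Fcgr2b, the inhibitory receptor gene, was higher in RES in most classes. In RES it was read at 351 CPM in macrophages, 273 CPM in intermediate monocytes, 271 CPM in classical monocytes, 116 CPM in cDC, 104 CPM in nonclassical monocytes, 70.6 CPM in B cells and 34.3 CPM in NK cells. In Ctrl the same classes held 254, 174, 182, 86.8, 107, 52.4 and 26.1 CPM. Macrophages headed the order in both libraries. The log2 ratio was 0.65 (0.38 to 0.93) in intermediate monocytes, 0.57 (0.42 to 0.73) in classical monocytes and 0.46 (0.25 to 0.68) in macrophages. It was 0.42 (0.17 to 0.67) in cDC and 0.39 (0.09 to 0.70) in NK cells. With each cell assigned to its highest marker list, the NK value was 0.14 (-0.14 to 0.42). With cells thinned to 2000 UMIs the interval held 0 in NK cells, at 0.27 (-0.15 to 0.69), in classical monocytes, at 0.34 (-0.08 to 0.79), and in cDC, at -0.94 (-2.79 to 0.67). Nonclassical monocytes were the exception among the myeloid classes at -0.04 (-0.30 to 0.22), and the interval in B cells, which rested on 30 RES and 20 Ctrl UMIs, also held 0. Liver sinusoidal endothelium is a further known source of Fcgr2b, which a sort for CD45 and CD11b should remove. The endothelial markers Stab2, Clec4g, Kdr, Ptprb and Oit3 summed to 2.24 CPM in RES macrophages, with 4 of 5 detected, and 2.58 CPM in Ctrl macrophages, with 1 of 5 detected, and Oit3 was at 0 in both.

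Fcgrt, the neonatal Fc receptor gene, was highest in cDC at 94.99 CPM in RES and 95.6 CPM in Ctrl, a log2 ratio of -0.01 (-0.26 to 0.24). In Ctrl the intervals of cDC (84.14 to 108.2 CPM) and macrophages (69.35 to 112.8 CPM) overlapped, so cDC stood apart only in RES. Nonclassical monocytes held 71.4 CPM in RES and 63.6 CPM in Ctrl, classical monocytes 30.3 CPM in RES and 37.9 CPM in Ctrl, intermediate monocytes 32.2 CPM in RES and 29.8 CPM in Ctrl, and B cells 25.9 CPM in RES and 10.48 CPM in Ctrl. In macrophages it was 42.2 CPM in RES and 89.1 CPM in Ctrl, a log2 ratio of -1.08 (-1.48 to -0.66). The 7 dendritic cell markers of the cDC gate summed to 9.79 CPM in RES macrophages, with Ccr7 and Fscn1 at 0, and 41.3 CPM in Ctrl macrophages, with Xcr1 at 0, and their part in this was not tested. Its partner B2m, the β2-microglobulin gene, was 1282 CPM in RES and 2578 CPM in Ctrl macrophages, a log2 ratio of -1.01 (-1.08 to -0.93). In NK cells, where Fcgrt stayed under 1 CPM in both libraries, B2m was 2325 CPM in RES and 1847 CPM in Ctrl.

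Set against the whole transcriptome, macrophages were the class in which most members differed. A gene was counted as different where the RES and Ctrl levels were at least 1.5-fold apart and at least 1 of them reached 20 CPM. In macrophages 5 of 6 members were lower in RES by this rule, Fcgr2b being the exception, and the median log2 ratio of the members was -0.97 against 0.02 over all genes measured; of all genes, 18.4% were lower in RES and 18.1% higher. In intermediate monocytes 2 of 6 members, Fcgr1 and Fcgr2b, were higher and none lower, where 11.7% of all genes were higher and 6.73% lower. None of the 6 members passed in classical monocytes (7.01% of all genes higher and 5.82% lower) or in nonclassical monocytes (6.05% and 2.63%). The same held for the 5 members measured in cDC, all but Fcgr4 (5.19% and 2.93%), and for Fcgr3, Fcer1g and Fcgr2b, the 3 measured in NK cells (0.857% and 0.605%). In B cells Fcgrt was counted as higher on 11 RES and 4 Ctrl UMIs and Fcer1g as lower on 20 RES and 49 Ctrl UMIs, 35 of the Ctrl UMIs from 1 cell, where 17.5% of all genes were higher and 15.6% lower.

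**Figure D2:**
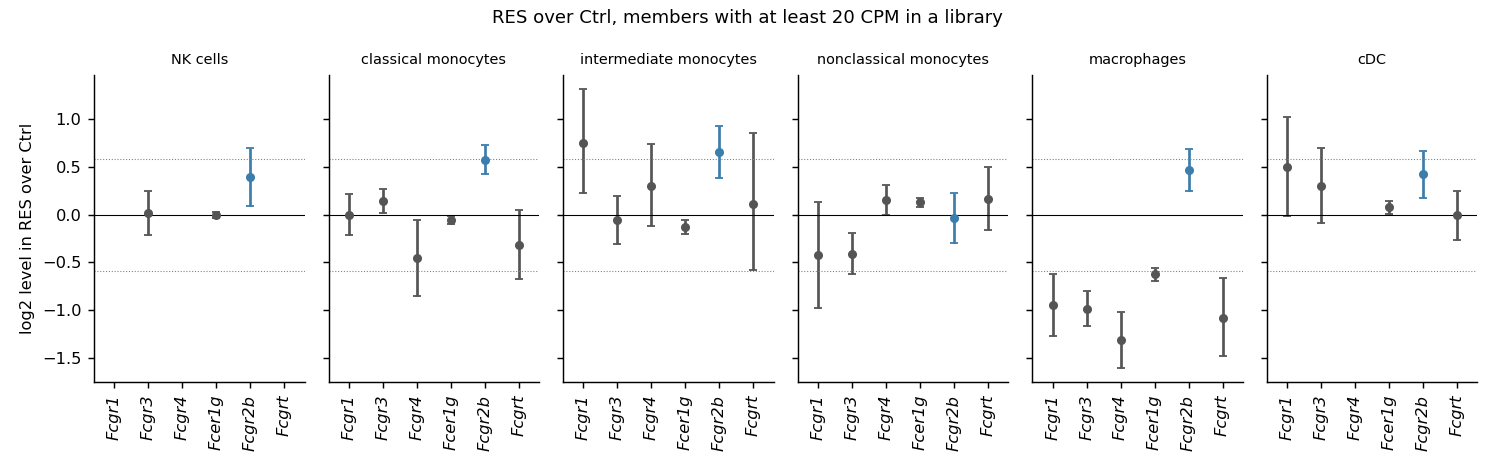
log2 ratio of the level in RES over Ctrl (vertical axis) for each member with at least 20 CPM in either library, by class; bars are exact 95% intervals, dotted lines mark 1.5-fold, and Fcgr2b is in blue. In macrophages 5 members lie below the lower dotted line and Fcgr2b lies at 0.46; in NK cells the 3 measured members lie between 0.00 and 0.39.

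RES macrophages were deeper, and the picture per cell was different. Counted as UMIs per cell rather than as CPM, Fcgr2b was 2.36-fold higher in RES macrophages, whereas Fcgr1 was 0.888-fold, Fcgr3 0.866-fold, Fcgr4 0.689-fold and Fcer1g 1.11-fold the Ctrl value. With every cell thinned to 1000 UMIs, a UMI of Fcgr1 was seen in 6.03% of RES macrophages (3.82 to 8.98%) and 26.3% of Ctrl macrophages (17.9 to 36.1%). For Fcgr4 the thinned shares were 5.21% in RES and 20.2% in Ctrl macrophages. For Fcgr2b they were 26.8% (22.4 to 31.7%) in RES and 17.2% (10.3 to 26.1%) in Ctrl macrophages, with overlapping intervals. Without thinning, the shares were 45.9% in RES and 60.6% in Ctrl for Fcgr1, 39.9% and 56.6% for Fcgr4, and 87.2% and 65.7% for Fcgr2b. T cells, which should lack these 3 genes, gave a thinned Fcgr1 UMI in 1 of 42 RES cells, 2.38% (0.0603 to 12.6%), and in 0 of 31 Ctrl cells, which allows a share of up to 9.68%. Fcgr4 and Fcgr2b gave none in T cells, which allows shares of up to 7.14% in RES and 9.68% in Ctrl; their median depths were 5454.5 and 4932 UMIs.

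The activating to inhibitory ratio, the summed UMIs of Fcgr1, Fcgr3 and Fcgr4 over those of Fcgr2b, needs no scaling for depth. UMIs were not divided by transcript length, and capture can differ between genes, so the ratio is read between classes and libraries and not as a number of receptors. In macrophages it was 1.01 (0.947 to 1.08) in RES, from 1741 activating and 1719 Fcgr2b UMIs, and 2.89 (2.45 to 3.41) in Ctrl. The RES ratio was thus 0.351-fold the Ctrl ratio (0.293 to 0.419), a log2 difference of -1.51 (-1.77 to -1.26). All 3 activating genes contributed: set singly over Fcgr2b, the log2 difference was -1.41 for Fcgr1, -1.45 for Fcgr3 and -1.78 for Fcgr4.

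In classical monocytes the ratio was 1.62 (1.53 to 1.72) in RES and 2.30 (2.06 to 2.58) in Ctrl, a log2 difference of -0.51 (-0.69 to -0.32). There Fcgr1 and Fcgr3 lay close to their Ctrl levels, at log2 ratios of 0.00 and 0.14. Fcgr4 was lower in RES at -0.46 (-0.85 to -0.06), and Fcgr2b was higher at 0.57. Set singly over Fcgr2b, the log2 difference was -0.57 for Fcgr1, -0.43 for Fcgr3 and -1.03 for Fcgr4. Intermediate monocytes gave 1.44 in RES and 2.04 in Ctrl, a log2 difference of -0.50 (-0.85 to -0.17). That interval held 0 without the cells high in Arg1 and Spp1, at -0.33 (-0.70 to 0.03), with gate thresholds doubled, at -0.67 (-1.51 to 0.13), and without Fcgr3 in the activating sum, at -0.17 (-0.60 to 0.27). Nonclassical monocytes had the highest ratio of all classes, with 4.43 in RES and 4.49 in Ctrl and a log2 difference of -0.02 (-0.31 to 0.27). With each cell assigned to its highest marker list, the log2 difference in nonclassical monocytes was -0.25 (-0.48 to -0.02). In cDC Fcgr2b exceeded the activating sum in both libraries, with ratios of 0.797 in RES and 0.819 in Ctrl and a log2 difference of -0.04 (-0.41 to 0.34). NK cells gave 1.60 in RES and 2.04 in Ctrl, with an interval of the log2 difference that held 0 (-0.74 to 0.02), and in B cells 5 activating UMIs stood beside 30 of Fcgr2b in RES and 5 beside 20 in Ctrl.

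**Figure D3:**
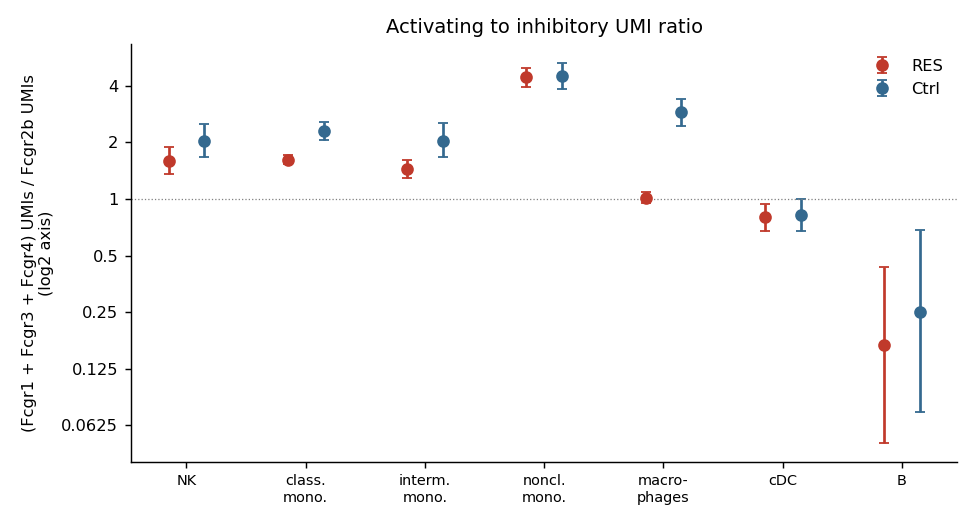
Ratio of summed Fcgr1, Fcgr3 and Fcgr4 UMIs to Fcgr2b UMIs (log2 axis) by class, RES in red left of Ctrl in blue, with exact 95% intervals; the dotted line marks equal UMIs. The widest gap is in macrophages, at 1.01 in RES and 2.89 in Ctrl, and nonclassical monocytes lie highest at 4.43 and 4.49.

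The make-up of the 4 IgG receptor genes separated the classes. Of their summed UMIs in RES macrophages, 49.7% (48.0 to 51.4%) were Fcgr2b, 30.2% Fcgr3, 10.1% Fcgr4 and 10.1% Fcgr1. In Ctrl macrophages 25.7% (22.7 to 29.0%) were Fcgr2b, 42.6% Fcgr3, 17.9% Fcgr4 and 13.8% Fcgr1. The Fcgr2b share of cDC was 55.6% (51.6 to 59.7%) in RES and 55.0% (50.0 to 59.8%) in Ctrl. RES macrophages came near the share of RES cDC but stayed below it, without overlap of the intervals. In nonclassical monocytes Fcgr4 led with 55.1% (52.8 to 57.3%) in RES and 47.8% (44.7 to 50.8%) in Ctrl, and Fcgr3 took 22.9% in RES and 29.4% in Ctrl, while Fcgr1 and Fcgr2b held like shares in both libraries. In NK cells Fcgr3 held 58.8% of 602 UMIs in RES and 65.1% of 456 in Ctrl, and Fcgr2b 38.5% in RES and 32.9% in Ctrl.

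**Figure D4:**
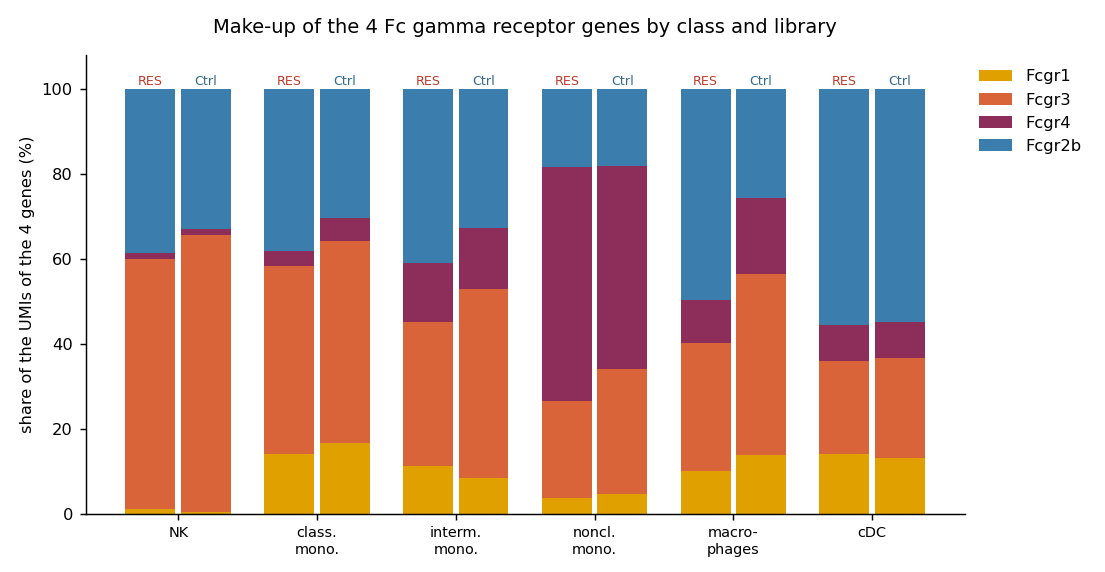
Share of each gene in the summed UMIs of Fcgr1, Fcgr3, Fcgr4 and Fcgr2b (vertical axis, percent) by class, with the RES bar left of the Ctrl bar. Fcgr2b fills 49.7% of the RES and 25.7% of the Ctrl macrophage bar, and Fcgr4 leads in nonclassical monocytes with 55.1% in RES and 47.8% in Ctrl.

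Within cells, most macrophages and classical monocytes gave UMIs of both kinds of receptor transcript at full depth, and most nonclassical monocytes did not. At full depth, UMIs of at least 1 activating gene and of Fcgr2b were found together in 80.6% of RES and 63.6% of Ctrl macrophages, and in 78.2% of RES and 59.5% of Ctrl classical monocytes. In nonclassical monocytes they were found together in 29.6% of RES and 33.0% of Ctrl cells. Because RES cells were deeper, and nonclassical monocytes shallower than macrophages and classical monocytes, the thinned cells are the fairer comparison. At 1000 UMIs per cell both kinds were seen in 8.49% of RES and 10.1% of Ctrl macrophages, and in 6.72% of RES and 3.81% of Ctrl classical monocytes. For nonclassical monocytes the thinned shares were 2.88% in RES and 3.51% in Ctrl, so in Ctrl they lay close to classical monocytes. At that depth 18.4% of RES and 7.07% of Ctrl macrophages showed Fcgr2b alone, and 15.6% of RES and 51.5% of Ctrl macrophages showed an activating gene alone. In classical monocytes Fcgr2b alone was seen in 13.4% of RES and 7.30% of Ctrl cells, and an activating gene alone in 27.8% of RES and 29.2% of Ctrl cells. In NK cells the transcripts were seldom seen together even at full depth, in 2.48% of RES and 1.52% of Ctrl cells.

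NK cells gave more UMIs of Fcgr2b than of Fcgr1 or Fcgr4. In the plan for the shares, NK cells were listed as a class that should lack all of these genes. Whether the Fcgr2b UMIs came from the NK cells themselves was not tested. Fcgr2b gave 232 UMIs in RES and 150 UMIs in Ctrl NK cells, against 7 in RES and 2 in Ctrl for Fcgr1. The ratio of Fcgr1 to Fcgr2b UMIs was 0.0302 in RES and 0.0133 in Ctrl NK cells. It was 0.0333 in RES and 0.05 in Ctrl B cells, each on 1 Fcgr1 UMI. In macrophages it was 0.202 in RES and 0.538 in Ctrl, and in classical monocytes 0.367 in RES and 0.546 in Ctrl. After thinning, Fcgr2b was seen in 3.91% of RES (2.98 to 5.02%) and 2.94% of Ctrl NK cells (2.16 to 3.90%), and Fcgr3 in 4.38% of RES and 6.01% of Ctrl NK cells.

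The macrophage gap was wider with than without the cells high in Arg1 and Spp1. RES macrophages with at least 10 UMIs of the pair had a ratio of 0.916 (0.851 to 0.986), and the 38 RES macrophages with none had 1.66 (1.34 to 2.06), against 3.14 (2.61 to 3.79) in the 86 Ctrl macrophages with none. The Fcgr1 level in the strata was 59.9 CPM in RES cells with at least 10 UMIs, 174 CPM in RES cells with none and 139 CPM in Ctrl cells with none. Fcgr4 followed with 63.2, 180 and 195 CPM in the same strata. Fcgr2b differed otherwise, at 352 CPM in RES cells with at least 10 UMIs and 415 CPM in RES cells with none, against 238 CPM in Ctrl cells with none. With all cells of the high stratum left out, 63 RES and 93 Ctrl macrophages remained, and the log2 difference of the ratio was -0.80 (-1.16 to -0.44). In these cells Fcgr1 had a log2 ratio of 0.06 (-0.37 to 0.48), Fcgr3 of -0.48, Fcgr4 of -0.56, Fcer1g of -0.29 and Fcgrt of -0.74, so that Fcgrt alone stayed past 1.5-fold, while Fcgr2b kept 0.42 (0.13 to 0.72).

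The ratio in classical monocytes was also lowest in the high stratum, though Fcgr1 was not. The 152 RES classical monocytes with at least 10 UMIs of Arg1 and Spp1 had a ratio of 1.04 (0.939 to 1.15) and 413 CPM of Fcgr2b. The 335 RES cells with none had a ratio of 1.92 (1.76 to 2.09) and 224 CPM of Fcgr2b, against 2.28 (2.04 to 2.55) and 182 CPM in the 311 Ctrl cells with none. Fcgr1 was 128 CPM in the RES classical monocytes of the high stratum and 86.7 CPM in those with none, against 99.4 CPM in Ctrl cells with none. Without the high stratum the log2 difference of the ratio in classical monocytes was -0.20 (-0.40 to -0.01). In intermediate monocytes the 56 RES cells of the high stratum had a ratio of 1.24 (1.05 to 1.47), the 35 with 1 to 9 UMIs 1.74 (1.34 to 2.29) and the 78 with none 1.54 (1.30 to 1.82), against 2.06 (1.67 to 2.55) in the 92 Ctrl cells with none. In nonclassical monocytes the 25 RES cells of the high stratum had a ratio of 1.29, and the 380 with none had 5.71 (4.88 to 6.72), against 4.57 (3.89 to 5.39) in the 281 Ctrl cells with none. RES cells of the high stratum were also deeper than those with none. Their median was 11035 UMIs against 5167 in nonclassical monocytes and 13964.5 against 9570.5 in intermediate monocytes. It was 11453.5 against 10410 in classical monocytes and 12806 against 9194.5 in macrophages. The part of depth and of doublets in the ratios of the strata was not tested.

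**Figure D5:**
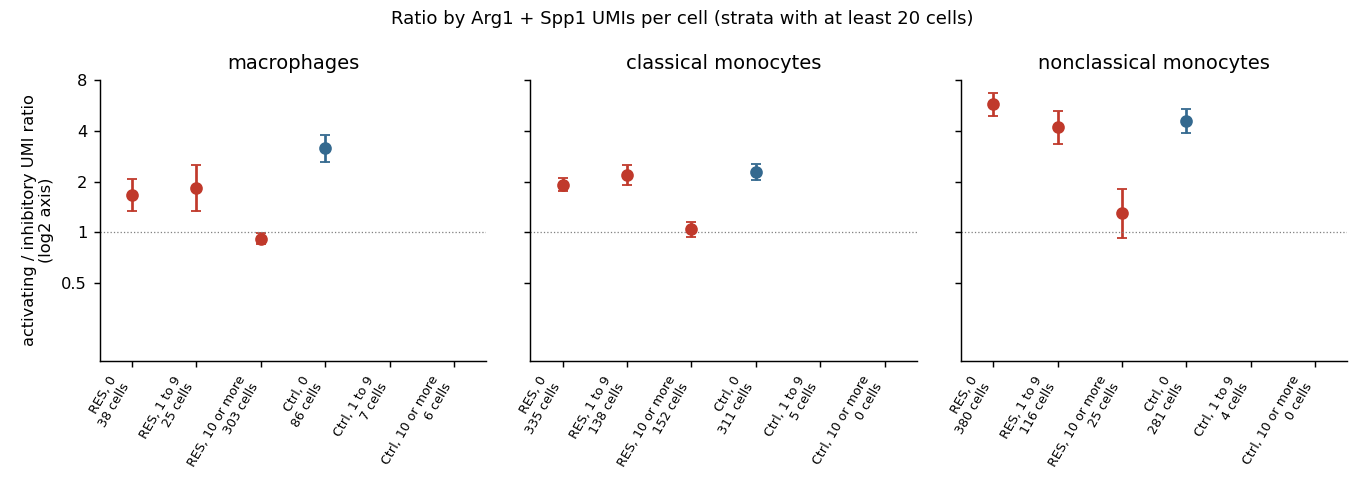
Activating to inhibitory UMI ratio (log2 axis) within strata of Arg1 plus Spp1 UMIs per cell, with cell numbers on the horizontal axis, RES in red left of Ctrl in blue, and exact 95% intervals; strata under 20 cells are not drawn. RES cells with at least 10 UMIs lie lowest in each class, at 0.916 in macrophages, 1.04 in classical and 1.29 in nonclassical monocytes.

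In the mouse, Fcgr1 and Fcgr4 are known targets of interferon gamma, and other genes that it induces were lower in RES than in Ctrl. Cxcl9, Gbp2, Gbp4, Gbp5, Irf1 and Ciita all had lower levels in RES in classical, intermediate and nonclassical monocytes and in macrophages. In classical monocytes the guanylate-binding protein gene Gbp2 was 28.3 CPM in RES and 312 CPM in Ctrl, a log2 ratio of -3.46 (-3.70 to -3.23), and Irf1, a transcription factor gene of the response, had -1.85 (-2.05 to -1.66). Fcgr1 stood beside them at 99.5 CPM in both libraries. Fcgr4 in classical monocytes was 24.3 CPM in RES and 33.4 CPM in Ctrl, a log2 ratio of -0.46 (-0.85 to -0.06). In macrophages Gbp2 was 5.92 CPM in RES and 204 CPM in Ctrl, and there Fcgr1 and Fcgr4 were lower too. In nonclassical monocytes Gbp2 was 22.7 CPM in RES and 111 CPM in Ctrl, beside Fcgr4 at 310 CPM in RES and 280 CPM in Ctrl. Fcgr1 there was 20.4 CPM in RES and 27.3 CPM in Ctrl, a log2 ratio of -0.43 (-0.98 to 0.13). In intermediate monocytes Gbp2 was 12.8 CPM in RES and 293 CPM in Ctrl, a log2 ratio of -4.52 (-5.15 to -3.94). Fcgr1 was higher in RES there at 0.75 (0.22 to 1.32), an interval that held 0 with gate thresholds doubled. Fcgr4 there had a log2 ratio of 0.30 (-0.12 to 0.74).

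Genes that act below the receptors were counted by the same rule. In macrophages 3 of 19 measured signalling genes were at least 1.5-fold higher in RES and 2 lower, where 18.1% of all genes were higher and 18.4% lower; their median log2 ratio was -0.02, against 0.02 over all genes. Fyn, a Src family kinase, was 85.0 CPM in RES and 24.5 CPM in Ctrl, a log2 ratio of 1.79 (1.13 to 2.54), and Pik3r5, a regulatory subunit of PI3 kinase gamma, had 1.42 (0.90 to 1.98). Pik3r1, the regulatory subunit p85α, had -1.21 (-1.58 to -0.81), and Plcg2, the phospholipase that yields the calcium signal, -0.62 (-0.97 to -0.26). Of 10 negative regulators 2 were higher, the adaptors Dok2 at 0.89 (0.55 to 1.26) and Dok3 at 0.66 (0.13 to 1.23), and 1 was lower, Dok1 at -1.05 (-1.55 to -0.52). Inpp5d, which encodes SHIP1, the phosphatase that FcγRIIB recruits, was 105 CPM in RES and 155 CPM in Ctrl macrophages, a log2 ratio of -0.56 (-0.85 to -0.27), just short of 1.5-fold.

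Neither of the 2 measured genes for other receptor adaptors passed in macrophages. Tyrobp, which encodes the adaptor DAP12, had a log2 ratio of -0.48 (-0.55 to -0.41) and Hcst one of -0.14 (-0.63 to 0.38). A further list joined other antibody and Fc-like receptors with Sirpa and Cd47, which are neither. Of its 4 measured genes 2 were lower in RES macrophages. These were Trim21, the cytosolic antibody receptor, with a log2 ratio of -2.44 (-3.28 to -1.59), and Fcrls with -1.08 (-1.92 to -0.16). Sirpa, the receptor for the CD47 signal that restrains phagocytosis, stood at 388 CPM in RES and 439 CPM in Ctrl, and Cd47 at 335 CPM in RES and 400 CPM in Ctrl. In NK cells none of the 18 signalling genes, 8 negative regulators and 3 adaptors measured was 1.5-fold apart, nor was Trim21 or Cd47. Of all genes in NK cells, only 0.857% were higher and 0.605% lower, so few calls would be found in any such list. The largest log2 ratios among the signalling genes of NK cells were 0.45 for Pik3r5 and 0.34 for Syk, the kinase that binds the phosphorylated ITAM, and the lowest -0.53 for Fgr.

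The members did not share a single pattern over the 14 levels that 7 classes in 2 libraries give. Pearson's r of log2(CPM + 10) was 0.94 between Fcgr1 and Fcgr2b, 0.86 between Fcgr1 and Fcgr3 and 0.82 between Fcgr3 and Fcer1g, but 0.54 between Fcgr4 and its partner chain Fcer1g and 0.18 between Fcer1g and Fcgrt. These levels share their libraries and depths, so the coefficients are a description. Among the 2763 or 2764 other genes that reached 100 CPM in at least 1 of these levels and were used in no gate, Tyrobp was nearest to Fcer1g with an r of 0.99. The nearest to Fcgr4 were Tcf7l2, Cd300ld and Nmt1 (0.98, 0.97 and 0.97), to Fcgr1 Clec4a2, Cd93 and Akr1a1 (0.97, 0.97 and 0.96), and to Fcgr2b Tmem106a, Cyfip1 and App (0.98, 0.97 and 0.96). Selenop, Prdx5 and Zeb2 were nearest to Fcgr3 (0.96, 0.96 and 0.95), and Tbc1d9, Gdi2 and Prcp to Fcgrt (0.94, 0.94 and 0.93).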

How the data were processed

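Per the labels' protocols, CD45+ CD11b+ liver cells of 5 pooled mice per group were sorted and made into 10x Genomics 3′ libraries. What the authors deposited is, for each gene and barcode, the raw UMI count, not normalized. Cell Ranger 3.1.0 made the matrices, per the file headers; bcl2fastq and the mm10 build come from the submitters' processing notes. Which gene annotation they used is not given in the sources used here. RES held 34119806 UMIs in 4278 barcodes and Ctrl 20379164 in 3691.

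Computed here (Python 3.11.15, scipy 1.17.1, scanpy 1.11.5): barcodes under 200 genes or over 10% mitochondrial UMIs were dropped, and the highest Scrublet scores were left out at 0.8% per 1000 barcodes, which removed 146 RES and 109 Ctrl barcodes. Gates counted UMIs of marker genes per cell. Their thresholds were set after the data were seen: NK cells needed at least 5 UMIs of NK genes, macrophages 10 UMIs of common myeloid genes and 5 of C1q genes, and monocytes, also above 10, at least 4 UMIs of a monocyte set and at most 2 of the absent set. Cells in more than 1 gate were left out, as were 429 RES and 473 Ctrl cells in none. UMIs were summed per class and library. Intervals are exact Poisson for levels, conditional binomial for RES over Ctrl, conditional odds ratio for the activating to inhibitory ratio and Clopper-Pearson for shares, all at 95%; an upper limit for a count of 0 is 3 counts. PCR copies are merged by UMI, but intervals cover counting error only. The intervals and calls were run on simulated Poisson counts without spread between cells or mice. The intervals assume such counts, so this run checks the calculation only. Named genes are all members, the 3 genes nearest to each, and per pathway list the 2 highest and 2 lowest log2 ratios in macrophages and NK cells. Members and lists were chosen with earlier results of these data known. Gate, depth, scaling and filter alternatives were tried. Some marker genes are not reported here.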

Additional observations from a re-analysis of the deposited data

Results flagged for a closer look

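The difference between RES and Ctrl pointed in opposite directions in 2 cell classes for 3 of the genes, with each interval clear of 0; the difference between the classes was not tested. Fcgr1 had a log2 ratio of RES over Ctrl of -0.95 in macrophages and 0.75 in intermediate monocytes. Fcgr3 had -0.98 in macrophages and 0.14 in classical monocytes. Fcer1g had -1.45 in B cells, where it rests on 20 RES and 49 Ctrl UMIs, 35 of the Ctrl UMIs from 1 cell, and 0.13 in nonclassical monocytes.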

How the results depend on the processing

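For the activating to inhibitory ratio in macrophages, classical and nonclassical monocytes, 25 of 30 alternative values lay within the counting interval of the reported one. In macrophages the log2 difference was -0.80 without cells holding at least 10 Arg1 and Spp1 UMIs and -1.87 with levels averaged over cells. In classical monocytes it was -0.16 with cells thinned to 2000 UMIs, where the interval held 0, and -0.20 both without cells high in Arg1 and Spp1 and with those cells counted as macrophages. The cause of the shifts was not tested. Among 401 values of single genes, 352 lay within the reported interval, 46 outside it in the same direction or from an uncalled value, and 3 called values turned: Fcgr1 in macrophages to 0.0565 without cells high in Arg1 and Spp1, and Fcer1g in B cells to 0.41 with thinned cells and to 0.23 without cells high in Arg1 and Spp1. Leaving out cells high in Arg1 and Spp1, and the barcodes found in both libraries, was chosen after seeing the data. With a floor of 100 CPM, the share of all genes 1.5-fold apart in either direction was 0.856% against 1.46% at 20 CPM in NK cells, 11.7% against 18.4% in intermediate and 5.65% against 8.68% in nonclassical monocytes, 4.50% against 8.12% in cDC and 15.1% against 33.2% in B cells. Assigning each cell to its highest marker list gave no intermediate monocytes. No paired analysis was possible because each group has 1 library. Depth limits the members in B cells, and Fcgr1, Fcgr4 and Fcgrt in NK cells, to a few UMIs, and mouse, sort and library cannot be told apart from the group.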

Other observations

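Cells outside the 7 classes also held the genes. The 429 RES and 473 Ctrl cells that entered no gate had Fcgr3 at 173 CPM in RES and 144 CPM in Ctrl and Fcgr4 at 79.8 CPM in RES and 53.0 CPM in Ctrl. Cells with both B-cell and myeloid markers, 60 in RES and 56 in Ctrl, had Fcgr1 at 78.0 CPM in RES and 56.0 CPM in Ctrl and median depths of 15957.5 and 11329 UMIs. The 4 RES and 11 Ctrl plasmacytoid dendritic cells gave no UMI of Fcgr1, Fcgr3 or Fcgr4.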
